A study of Mus musculus with 7 samples.

Results

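Serpins are a superfamily of proteins named for the serine protease inhibitors among them, and the 40 genes described here are those whose annotated symbol starts with Serpin, out of 18193 genes read on the arrays. Each gene was read by 1 probe set with a single gene symbol, the one with the highest mean over the 7 arrays. The letter after Serpin names the clade, and 14 genes belong to clade A, 18 to clade B and 8 to clades C to I. All 40 symbols matched a mouse gene in RefSeq, and 1 of them, Serpina4-ps1, is a pseudogene.

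RNA was taken from 3 kinds of cultured mouse cells, labelled C57BL/6 (C57BL/6J where the methods give the mice), 2 arrays of induced hepatic stem cells (iHepSCs), 1 array of primary hepatocytes (pHep) and 4 arrays of mouse embryonic fibroblasts (MEF). The iHepSCs were made from MEF with lentiviruses that carry Oct4 and Hnf4α in an SFFV vector, picked as colonies and kept in hepatocyte (HEP) medium, which per the labels holds dexamethasone, HGF and EGF. One iHepSC array is from passage 3 (P3, replicate 1) and 1 from passage 20 (P20, replicate 2). Several clones were established, of which the study carried iHepSC-C3 into its detailed work, and the array labels name no clone, so that both arrays may come from 1 clone. The pHep were isolated from livers of 6-week-old mice by two-step collagenase perfusion and not reprogrammed. By the methods, their RNA was taken after a few hours on collagen in Williams' medium E with antibiotics and L-glutamine. No HEP supplements are named at that step, so that pHep differ from iHepSCs in time in culture and perhaps in medium. The MEF came from embryos without head and internal organs, were not reprogrammed and grew in DMEM with serum, so that medium and cell type cannot be told apart in a comparison with MEF. The labels do not say that replicates came from separate cultures, and the p-values then measure only the spread between these arrays. That spread may be technical among the MEF arrays. In iHepSCs it includes the difference between P3 and P20, which were taken as 2 replicates of 1 group.

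A serpin holds out a flexible loop as bait, and a protease that cuts it is trapped as the serpin folds the loop into its own body, at the cost of both molecules. Clade A and several of clades C to G are secreted, most of them by hepatocytes, and control clotting, fibrinolysis, complement and neutrophil proteases in plasma. Clade B serpins lack a classical signal peptide and stay mainly inside the cell, where they guard against proteases of granules and lysosomes. Some members have lost the inhibitory function, among them the hormone carriers Serpina6 and Serpina7 and the collagen chaperone Serpinh1.

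The values were log2 expression levels, with array medians between 6.28 and 6.33. Over all probe sets the correlation was 0.997 among MEF replicates 2 to 4, and 0.960 to 0.961 between MEF replicate 1 and each of them. Of 6 hepatocyte markers, iHepSCs had 4 higher than MEF and pHep had 5 (66.7% and 83.3%, against 18.2% and 14.8% of all genes). Alb, which encodes albumin, was at 14.39 (P20) and 13.74 (P3) in iHepSCs and 15.13 on the pHep array, against 5.35 to 5.89 in MEF, whereas Cyp2e1, an enzyme of mature hepatocytes, was at 5.11 on the pHep array, below its 5.22 to 5.52 on all other arrays. Of 6 fibroblast markers, iHepSCs had all 6 lower than MEF, and so had pHep (against 13.4% and 15.5% of all genes). Of 12 macrophage and Kupffer cell markers, 8 were higher and none lower in pHep than in MEF (66.7% higher, against 14.8% of all genes). Clec4f and Timd4, which define Kupffer cells, were at 6.08 and 4.50 on the pHep array and not called. The mean level of the list was 8.95 on the pHep array, 6.39 and 6.46 on the iHepSC arrays and 6.67 to 7.43 on the MEF arrays. On MEF replicate 1 the macrophage gene Lyz2 was at 11.95, against 9.60 to 9.91 on the other MEF arrays and 13.45 on the pHep array. In a mixed culture, fewer cells of a type and less RNA per cell cannot be told apart.

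Comparisons were made with limma in 1 model of the 7 arrays, and genes with an adjusted p under 0.05 over all 18193 are named higher or lower. In iHepSCs against MEF, 12 of the 40 Serpin genes were higher (30%, against 18.2% of all genes) and 5 were lower (12.5%, against 13.4%). In pHep against MEF, 10 were higher (25%, against 14.8% of all genes) and 7 were lower (17.5%, against 15.5%). In iHepSCs against pHep, 12 were higher (30%, against 9.26%) and 11 were lower (27.5%, against 7.89%). The median log2 difference of the Serpin genes was 0.14, -0.04 and 0.22 in these comparisons in turn, and that of all genes was 0.009, -0.13 and 0.15. The comparisons of iHepSCs and of pHep with MEF share the MEF arrays. Centred on Gapdh instead, which moved the median of all genes by 0.53 in iHepSCs against MEF and by 0.16 in pHep against MEF, the counts were 13 higher and 3 lower in iHepSCs and 10 higher and 4 lower in pHep. In all, 26 Serpin genes were called in at least 1 comparison. The other 14 were below a level of 6 on every array and called in none.

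Counted by clade, clade A had 2 of 14 genes higher and 1 lower in iHepSCs than in MEF (14.3% and 7.14%, against 18.2% and 13.4% of all genes), and 5 higher and none lower in pHep (35.7% higher, against 14.8%). Of the 18 in clade B, iHepSCs had 9 higher and 1 lower than MEF (50% and 5.56%), and pHep had 1 higher and 5 lower (5.56% and 27.8%, against 14.8% and 15.5% of all genes). The 5 became 3 when iHepSC replicate 1 or 2 or MEF replicate 2, 3 or 4 was left out and when arrays were centred on Gapdh, and 2 with MEF replicates 2 to 4 averaged, and the 1 gene lower in iHepSCs became none without either iHepSC array and 2 without MEF replicate 1. Of the 8 genes of clades C to I, 1 was higher and 3 lower in iHepSCs than in MEF (12.5% and 37.5%), and 4 were higher and 2 lower in pHep (50% and 25%). Set directly against pHep, iHepSCs had 1 clade A gene higher and 6 lower (7.14% and 42.9%, against 9.26% and 7.89% of all genes), 9 clade B genes higher and none lower (50% higher), and 2 genes of clades C to I higher and 5 lower (25% and 62.5%). The median log2 difference between iHepSCs and pHep was 0.86 in clade B, -0.13 in clade A and -4.78 in clades C to I, beside 0.15 over all genes. The clades were not tested against each other.

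**Figure D1:**
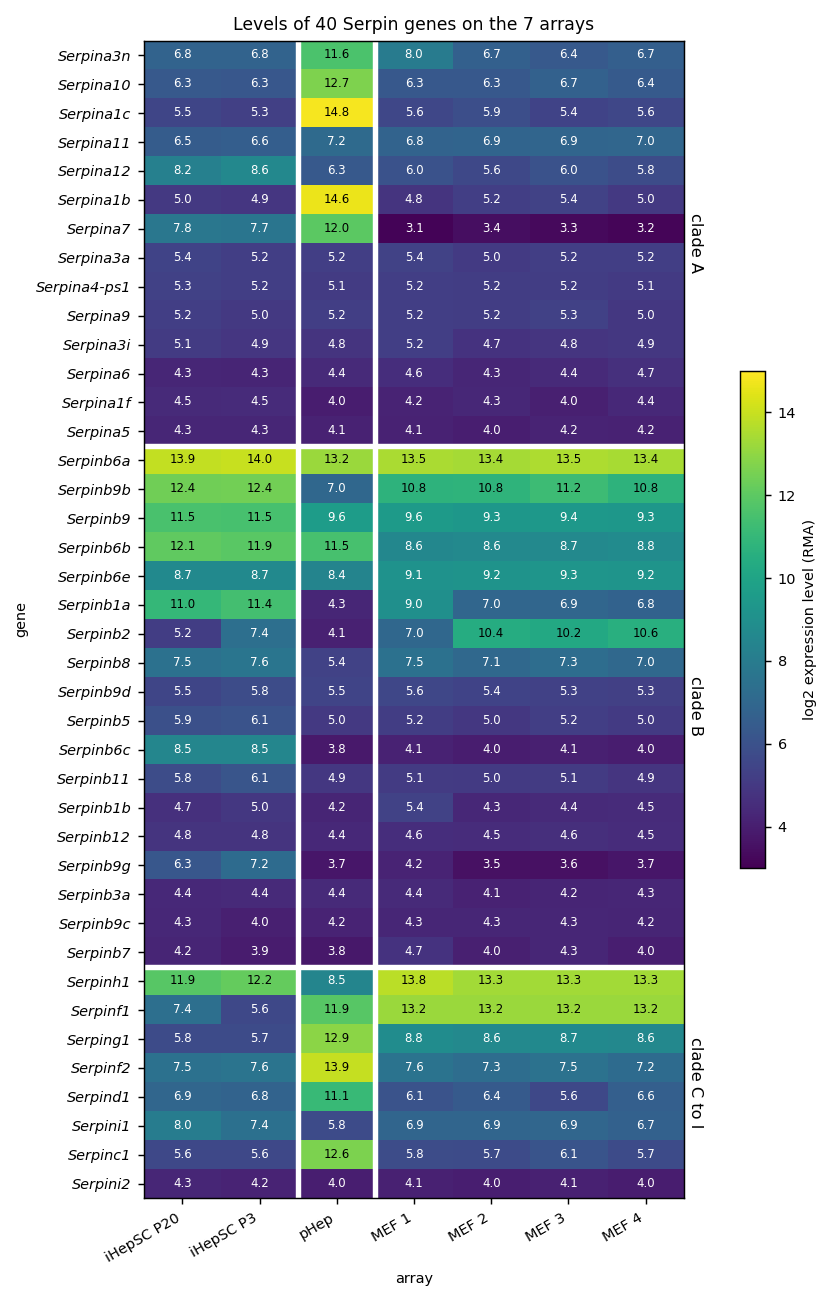
Log2 expression level of the 40 Serpin genes (rows, by clade and within a clade by mean level) on each of the 7 arrays (columns), with the value printed in each cell. In clade A the brightest cells lie on the pHep array, where Serpina1b is at 14.6 and Serpina1c at 14.8, Serpinb6a of clade B is above 13 on every array, and in clades C to I Serpinh1 and Serpinf1 are brightest in MEF.

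Of the 10 genes higher in pHep than in MEF, 9 are serpins secreted into plasma. Of these, 7 were not called between iHepSCs and MEF and were lower in iHepSCs than in pHep (Serpina1b, Serpina1c, Serpina3n, Serpina10, Serpinc1, Serpind1 and Serpinf2), Serpina7 was higher in iHepSCs than in MEF, and Serping1 was lower. Serpina1b and Serpina1c encode copies of α1-antitrypsin, the plasma inhibitor of neutrophil elastase. Serpina1b was at 14.65 on the pHep array, against 4.79, 5.24, 5.37 and 4.99 on the MEF arrays. On the iHepSC arrays it was at 4.99 (P20) and 4.91 (P3), within the range of MEF. Its log2 difference was 9.55 in pHep against MEF (standard error 0.23, adjusted p = 5.12e-06), and in iHepSCs against MEF it was -0.15 with a 95% interval of -0.58 to 0.28. Serpina1c was at 14.82 on the pHep array, against 5.40 to 5.89 on the MEF arrays, and at 5.53 (P20) and 5.29 (P3) in iHepSCs. It was 680-fold lower in iHepSCs than in pHep (log2 difference -9.41, standard error 0.23, adjusted p = 5.87e-06). A second probe set of Serpina1b gave 10.27 in pHep against MEF (adjusted p = 5.45e-06). The copies are near-identical, the probe set of Serpina1b is of a kind that may match several transcripts (suffix _x_at), and the signals of single copies are therefore uncertain.

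Serpina7 encodes thyroxine-binding globulin, a serpin that carries thyroid hormone and does not inhibit proteases. It was at 7.77 (P20) and 7.67 (P3) in iHepSCs and at 11.95 on the pHep array, against 3.14, 3.44, 3.32 and 3.17 on the MEF arrays. Neither iHepSCs nor pHep overlapped MEF, and iHepSCs lay between the other groups. Against MEF, iHepSCs differed by 4.45 on the log2 scale (standard error 0.12, adjusted p = 2.97e-06) and pHep by 8.69 (standard error 0.16, adjusted p = 3.84e-06). In iHepSCs it was lower than in pHep by a log2 difference of -4.24 (standard error 0.17, adjusted p = 3.02e-05). Serpina7 and Serpinb6b were the 2 Serpin genes called higher in both comparisons with MEF.

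The starts of these genes were read for letters that liver factors are known to bind. HNF1 is a homeodomain factor of hepatocytes, and HNF4, of which Hnf4α is a form, is a nuclear receptor. The letters GTTAAT, a core of the HNF1 site, were searched on both strands of the RefSeq promoter windows, 250 bases before to 50 bases after each annotated start, and so were the letters CAAAGTNCA of HNF4. GTTAAT lay in 7.1% of 32851 windows and CAAAGTNCA in 1.41%, and no window of a Serpin gene held both. These shares leave out 1 chromosome, which holds none of the 40 genes. They count windows, whereas the counts below are of genes, some of which have several windows. Of the 40 genes, 34 had a window, and 5 of them held GTTAAT and 1 held CAAAGTNCA. Of the 10 genes higher in pHep than in MEF, 8 had a window, of which 3 held GTTAAT (Serpina1b, Serpina1c and Serpina7) and 1 held CAAAGTNCA (Serpind1, from position 2 on). GTTAAT also lay in the windows of Serpinb8, which was lower in pHep than in MEF (log2 difference -1.83), and of Serpini2, below 6 on every array. Of the 11 genes with a window that were higher in iHepSCs than in MEF, 1 held GTTAAT, which is Serpina7. The 250 bases before the start are printed for the 3 genes of the pHep group that hold GTTAAT, since in iHepSCs against MEF 2 of them were not called and 1 rose. They are from RefSeq on GRCm38.p6, minus strand, 5′ to 3′, with GTTAAT in capitals:
Serpina1b, chr12:103738190-103738439: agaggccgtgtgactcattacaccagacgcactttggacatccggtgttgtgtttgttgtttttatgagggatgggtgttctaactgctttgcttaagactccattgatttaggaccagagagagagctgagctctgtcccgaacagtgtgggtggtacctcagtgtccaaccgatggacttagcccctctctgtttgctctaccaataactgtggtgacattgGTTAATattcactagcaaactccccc
Serpina1c, chr12:103904951-103905200: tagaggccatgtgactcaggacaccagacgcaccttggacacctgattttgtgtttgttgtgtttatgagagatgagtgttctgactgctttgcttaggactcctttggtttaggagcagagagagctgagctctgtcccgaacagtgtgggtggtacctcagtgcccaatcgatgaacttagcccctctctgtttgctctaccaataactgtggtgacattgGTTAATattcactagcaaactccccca
Serpina7, chrX:139085237-139085486: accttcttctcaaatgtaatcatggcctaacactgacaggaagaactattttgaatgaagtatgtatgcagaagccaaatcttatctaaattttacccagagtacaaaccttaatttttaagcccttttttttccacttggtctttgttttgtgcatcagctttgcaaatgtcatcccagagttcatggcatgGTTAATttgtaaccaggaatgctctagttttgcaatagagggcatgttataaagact
GTTAAT begins at position -26 from the start of Serpina1b, -27 of Serpina1c and -57 of Serpina7. Another annotated start of Serpina7, whose window is not printed, puts the same letters at -74. The whole windows of Serpina1b and Serpina1c were identical at 92% of their bases, whereas the window of Serpina1f, the neighbouring member of the same group that was below 6 on every array, was identical to them at 50.3% and 51.7%. Pairs of clade B windows gave like values, such as 51.7% for Serpinb6b and Serpinb6c and 50.3% for Serpinb9 and Serpinb9h. A value near 50% in this alignment therefore need not mean shared sequence. A match of these letters is a description and not a bound site.

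Serpinc1, Serpind1 and Serpina10 encode inhibitors of clotting proteases, antithrombin, heparin cofactor II and the protein Z-dependent inhibitor of factor Xa. Serpinc1 was at 12.64 on the pHep array, against 5.79, 5.72, 6.13 and 5.73 on the MEF arrays, a log2 difference of 6.79 (standard error 0.18, adjusted p = 6.85e-06). In iHepSCs it was at 5.58 (P20) and 5.62 (P3), just under all 4 MEF arrays, with a log2 difference of -0.24 and an interval of -0.59 to 0.11. Serpina10 was at 12.66 on the pHep array, against 6.32 to 6.72 in MEF, and at 6.34 (P20) and 6.27 (P3) in iHepSCs. Its log2 difference was 6.22 in pHep against MEF (standard error 0.19, adjusted p = 8.94e-06). Serpind1 was at 11.08 on the pHep array, against 6.08, 6.38, 5.59 and 6.61 on the MEF arrays, a log2 difference of 4.91 (standard error 0.37, adjusted p = 2.51e-04). Both iHepSC values of Serpind1, 6.95 (P20) and 6.81 (P3), lay above the highest MEF array, but the log2 difference of 0.72 did not pass the test (interval 0.02 to 1.41, adjusted p = 0.111). It passed when arrays were centred on Gapdh (1.24, adjusted p = 0.0244) and when MEF replicates 2 to 4 were averaged as 1 sample (0.75, adjusted p = 0.0426).

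Serpinf2 encodes α2-antiplasmin, which inhibits the fibrin-dissolving protease plasmin. It was at 13.94 on the pHep array, against 7.58, 7.30, 7.50 and 7.18 on the MEF arrays, a log2 difference of 6.55 (standard error 0.19, adjusted p = 7.25e-06). In iHepSCs its values of 7.45 (P20) and 7.61 (P3) overlapped MEF, and the log2 difference of 0.14 had an interval of -0.21 to 0.49. Serpina3n is a mouse gene of the α1-antichymotrypsin group, an acute-phase protein that inhibits neutrophil proteases. It was at 11.58 on the pHep array, against 8.01, 6.67, 6.36 and 6.65 on the MEF arrays, a log2 difference of 4.66 (standard error 0.59, adjusted p = 0.00227), and at 6.81 (P20) and 6.84 (P3) in iHepSCs. MEF replicate 1 was the high one, and without it the standard error fell to 0.14 and the log2 difference was 5.02 (adjusted p = 5.39e-07). The macrophage markers stood high on the same 2 arrays, pHep and MEF replicate 1, and their part in Serpina3n was not tested.

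Serping1 moved in opposite directions in iHepSCs and pHep. It encodes C1 inhibitor, which blocks the first complement proteases and plasma kallikrein. It was at 5.75 (P20) and 5.72 (P3) in iHepSCs and at 12.91 on the pHep array, against 8.82, 8.64, 8.72 and 8.60 on the MEF arrays. The groups did not overlap. Its log2 difference was -2.96 in iHepSCs against MEF (standard error 0.10, adjusted p = 7.30e-06), 4.21 in pHep against MEF (standard error 0.13, adjusted p = 9.32e-06) and -7.17 in iHepSCs against pHep, a 144-fold lower level in iHepSCs (standard error 0.14, adjusted p = 4.52e-06).

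Serpinf1 had the largest called fall of a Serpin gene in iHepSCs. It encodes PEDF, a secreted serpin without known protease inhibition that restrains new vessels. It was at 7.38 (P20) and 5.62 (P3) in iHepSCs, against 13.20, 13.21, 13.19 and 13.18 on the MEF arrays, and at 11.87 on the pHep array. The log2 difference in iHepSCs against MEF was -6.69, a 104-fold lower level (standard error 0.44, adjusted p = 1.11e-04). The second probe set gave -5.30 (standard error 0.32, adjusted p = 1.17e-04). In pHep the log2 difference of -1.33 did not pass (adjusted p = 0.13), but that of the second probe set did (-2.38, adjusted p = 0.00823). The 2 iHepSC values for this gene differed by 1.76. Without either iHepSC array the difference was again -1.33. The spread then came from the MEF arrays alone (standard deviation 0.01), so the p-value of that fit is not read. The fibroblast markers fell beside it in both, with Col1a1 at 6.34 (P20) and 6.44 (P3) in iHepSCs and 8.55 on the pHep array, against 12.97 to 13.97 in MEF, and the part of fibroblasts in the values of pHep was not tested.

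Serpinh1 encodes HSP47, a chaperone of the endoplasmic reticulum that folds procollagen and inhibits no protease. It was at 11.89 (P20) and 12.17 (P3) in iHepSCs, against 13.77, 13.35, 13.34 and 13.33 on the MEF arrays, and at 8.46 on the pHep array. The groups did not overlap, and iHepSCs lay between MEF and pHep. The log2 difference was -1.42 in iHepSCs against MEF (standard error 0.17, adjusted p = 0.00136; -0.89 and 0.0631 when centred on Gapdh) and -4.99 in pHep against MEF (standard error 0.22, adjusted p = 2.97e-05). In iHepSCs it was 11.9-fold higher than in pHep (log2 difference 3.57, standard error 0.24, adjusted p = 2.21e-04). Its procollagen clients differed more in iHepSCs, where the log2 difference from MEF was -6.85 for Col1a1 (adjusted p = 2.18e-05), -7.60 for Col1a2 (adjusted p = 8.50e-06) and -8.38 for Col3a1 (adjusted p = 2.10e-05). In pHep the same genes had log2 differences of -4.69, -3.81 and -2.56 from MEF.

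**Figure D2:**
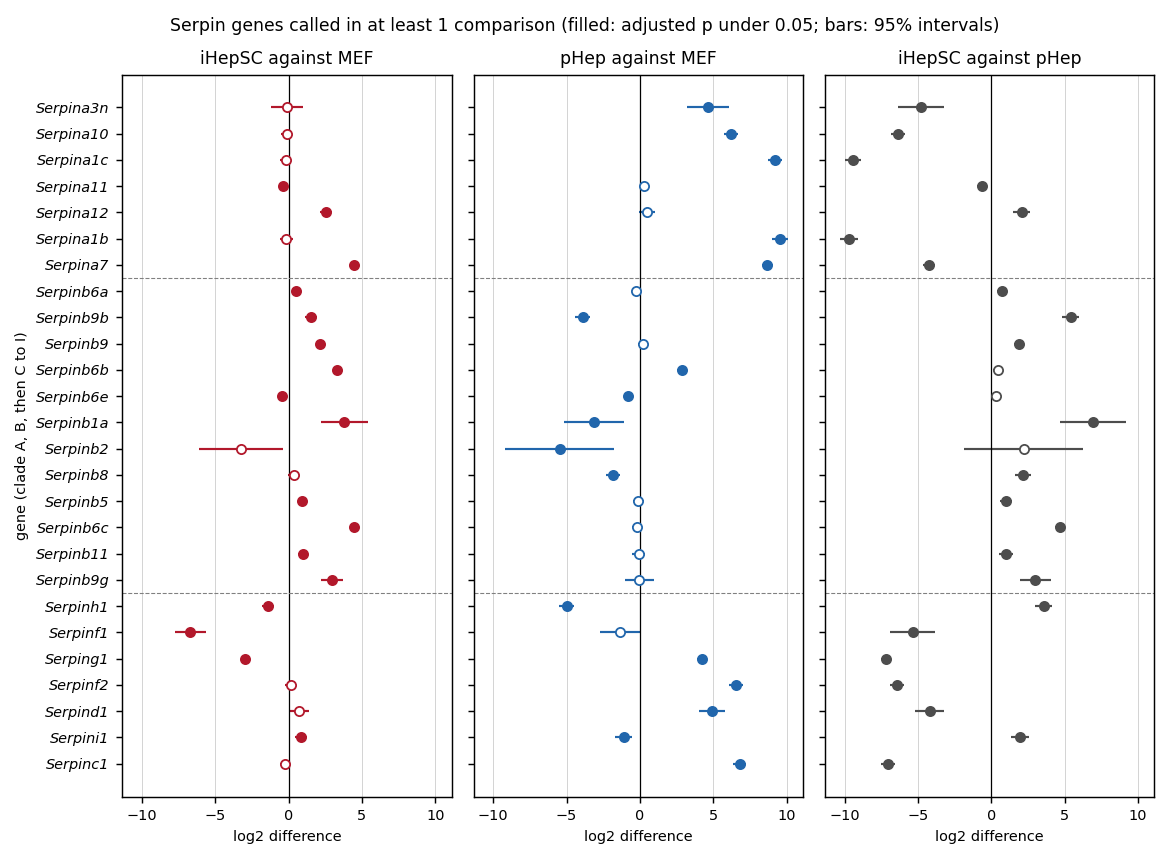
Log2 difference of the 26 Serpin genes called in at least 1 comparison (rows), in iHepSCs against MEF, pHep against MEF and iHepSCs against pHep (panels), with 95% intervals from limma; filled points passed at an adjusted p under 0.05. The difference of Serpina1b is 9.55 in pHep against MEF and -0.15 in iHepSCs against MEF, that of Serpinf1 is -1.33 and -6.69, and in clade B 9 of 18 genes were higher in the iHepSC arrays than in MEF.

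In clade B, 7 of the 9 genes higher in iHepSCs than in MEF lie in 1 gene cluster. Serpinb1a, which encodes an inhibitor of neutrophil elastase, cathepsin G and proteinase 3, was at 11.002 (P20) and 11.43 (P3) in iHepSCs and at 4.27 on the pHep array, against 8.97, 6.95, 6.95 and 6.76 on the MEF arrays. The iHepSC arrays were high, the pHep array was the lowest, and MEF replicate 1, on which macrophage markers were high too, lay above the other MEF arrays; the part of macrophages in it was not tested. It differed by 3.81 on the log2 scale in iHepSCs against MEF (standard error 0.65, adjusted p = 0.00603) and by 6.94 in iHepSCs against pHep (standard error 0.92, adjusted p = 0.0038). Without MEF replicate 1 the first was 4.33 with a standard error of 0.14 (adjusted p = 5.39e-07), and without iHepSC replicate 1 it did not pass (3.59, adjusted p = 0.0622), nor with MEF replicates 2 to 4 averaged as 1 sample (3.29, adjusted p = 0.0775). A second probe set gave 3.51 (adjusted p = 7.41e-04). The fall in pHep against MEF was less firm, with a log2 difference of -3.14 (adjusted p = 0.0352) that did not pass without either iHepSC array (adjusted p = 0.0744), without MEF replicate 2, 3 or 4 (adjusted p = 0.0648, 0.065 and 0.0543) on the second probe set (-0.999, adjusted p = 0.131) or when centred on Gapdh (-2.98, adjusted p = 0.0548), and that was -2.62 without MEF replicate 1 (adjusted p = 2.28e-05).

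Of the Serpinb6 group, which is related to human SERPINB6, an inhibitor of cathepsin G and trypsin-like proteases, Serpinb6c was at 8.48 (P20) and 8.50 (P3) in iHepSCs and at 3.82 on the pHep array, against 4.15, 3.98, 4.07 and 3.95 on the MEF arrays. It was 21.9-fold higher in iHepSCs than in MEF (log2 difference 4.45, standard error 0.10, adjusted p = 1.64e-06) and 25.6-fold higher than in pHep (log2 difference 4.68, standard error 0.14, adjusted p = 1.25e-05), and no difference between pHep and MEF was called (-0.22, interval -0.53 to 0.09). Serpinb6b was at 12.06 (P20) and 11.94 (P3) in iHepSCs and at 11.53 on the pHep array, against 8.58, 8.63, 8.67 and 8.78 on the MEF arrays. It was the 1 clade B gene higher in pHep than in MEF, with a log2 difference of 2.87 (standard error 0.13, adjusted p = 3.66e-05), beside 3.34 in iHepSCs (standard error 0.10, adjusted p = 4.72e-06). The difference of 0.47 between iHepSCs and pHep did not pass (interval 0.12 to 0.83, adjusted p = 0.083) but passed without MEF replicate 1 (adjusted p = 0.018).

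Serpinb6a stood high on every array, at 13.88 (P20) and 13.98 (P3) in iHepSCs and 13.21 on the pHep array, against 13.39 to 13.52 in MEF. Its log2 difference of 0.47 in iHepSCs against MEF passed (adjusted p = 0.0109), but not without iHepSC replicate 1 (0.42, adjusted p = 0.088) or 2 (0.52, adjusted p = 0.053). That of 0.72 in iHepSCs against pHep passed too (adjusted p = 0.0145), but not without iHepSC replicate 1 (adjusted p = 0.0744) or when centred on Gapdh (1.09, adjusted p = 0.117). Serpinb6e, at 8.71 (P20) and 8.69 (P3) in iHepSCs and 8.40 on the pHep array, against 9.12 to 9.26 in MEF, was the 1 clade B gene lower in iHepSCs (-0.48, adjusted p = 0.00893) and was also lower in pHep (-0.78, adjusted p = 0.00451), although centred on Gapdh neither passed and the sign in iHepSCs turned (0.0456, adjusted p = 0.882, and -0.62, adjusted p = 0.276). The call in iHepSCs did not hold without iHepSC replicate 1 (-0.47, adjusted p = 0.0671) or 2 (-0.49, adjusted p = 0.0629).

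Serpinb9 encodes the inhibitor of granzyme B, the killing protease of cytotoxic lymphocytes. It was at 11.54 (P20) and 11.52 (P3) in iHepSCs and at 9.62 on the pHep array, against 9.56, 9.33, 9.40 and 9.33 on the MEF arrays. Its log2 difference was 2.12 in iHepSCs against MEF (standard error 0.11, adjusted p = 3.45e-05) and 1.91 in iHepSCs against pHep (standard error 0.15, adjusted p = 4.26e-04). A second probe set gave 2.99 against MEF (adjusted p = 7.87e-04). In pHep against MEF the log2 difference was 0.21 (adjusted p = 0.271), or 0.27 without MEF replicate 1 (adjusted p = 0.0462). Gzmb, which encodes granzyme B, was lower in pHep than in MEF by a log2 difference of -0.70 (adjusted p = 0.0345), at levels of 4.54 and 5.24, both below 6.

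Serpinb9b and Serpinb9g belong to the Serpinb9 group, which is larger in mice than in humans. Serpinb9b was at 12.39 (P20) and 12.43 (P3) in iHepSCs and at 7.00 on the pHep array, against 10.76, 10.81, 11.22 and 10.75 on the MEF arrays. Against MEF it was higher in iHepSCs, by 1.52 on the log2 scale (standard error 0.16, adjusted p = 8.09e-04), and lower in pHep (-3.89, standard error 0.21, adjusted p = 6.26e-05). It was 42.6-fold higher in iHepSCs than in pHep (log2 difference 5.41, standard error 0.23, adjusted p = 3.39e-05). Serpinb9g was at 6.25 (P20) and 7.22 (P3) in iHepSCs and at 3.72 on the pHep array, against 4.19, 3.54, 3.56 and 3.71 on the MEF arrays, with a log2 difference of 2.98 in iHepSCs against MEF (standard error 0.31, adjusted p = 7.99e-04). The promoter window of Serpinb9g was identical to those of Serpinb9d, Serpinb9e and Serpinb9f at 90.7%, 94.7% and 92.3% of bases. Promoter windows do not show what the probes match, and probe sequences were not compared. Another probe set carries the symbols Serpinb9e, Serpinb9f, Serpinb9g and Serpinb9h together, so these copies may share signal on the array. Serpinb9c and Serpinb9d stayed below 6 on every array, and Serpinb9d, with a log2 difference of 0.27 in iHepSCs against MEF (adjusted p = 0.18), passed only when MEF replicate 1 was left out (0.33, adjusted p = 0.0315).

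Serpinb5 and Serpinb11 rose in iHepSCs by smaller amounts and near the level of 6 at which the dim genes end. Serpinb5 encodes maspin, a non-inhibitory serpin of epithelial cells. It was at 5.94 (P20) and 6.08 (P3) in iHepSCs and at 5.003 on the pHep array, against 4.96 to 5.24 in MEF, and its log2 difference of 0.90 against MEF passed (standard error 0.12, adjusted p = 0.00202). Its 3 other probe sets gave 0.87, 1.33 and 1.40 (adjusted p = 0.0321, 0.00203 and 0.00203). Serpinb11 was at 5.79 (P20) and 6.14 (P3) in iHepSCs and at 4.93 on the pHep array, against 4.86 to 5.08 in MEF (log2 difference 0.95, standard error 0.14, adjusted p = 0.0029). Both were also higher in iHepSCs than in pHep, by 1.01 (adjusted p = 0.00979) and 1.03 (adjusted p = 0.0152), though not without iHepSC replicate 1 (0.94, adjusted p = 0.0589, and 0.86, adjusted p = 0.0581). Centred on Gapdh, the difference of Serpinb5 from pHep did not pass (1.38, adjusted p = 0.0593), nor did that of 1 of its other probe sets (0.86, adjusted p = 0.119). Of 3 markers of squamous epithelium, where maspin is known, Krt14 was at 9.85 (P20) and 10.85 (P3) in iHepSCs and at 5.17 on the pHep array, against 5.26 to 5.76 in MEF, whereas Krt5 and Trp63 were not called.

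Serpinb2 and Serpinb8 were lower in pHep than in MEF. Serpinb2 encodes plasminogen activator inhibitor 2, known from macrophages and keratinocytes. It was at 5.17 (P20) and 7.41 (P3) in iHepSCs and at 4.08 on the pHep array, against 6.99, 10.41, 10.22 and 10.56 on the MEF arrays. MEF replicate 1 lay far below the other MEF arrays and between the iHepSC arrays. The log2 difference of -5.46 in pHep against MEF passed (standard error 1.52, adjusted p = 0.0403), but not without either iHepSC array (adjusted p = 0.0634) or without MEF replicate 2, 3 or 4 (-5.18, -5.24 and -5.13, adjusted p = 0.0897, 0.0919 and 0.0874), and without MEF replicate 1 it was -6.31 (adjusted p = 2.78e-04). In iHepSCs against MEF, -3.26 did not pass (standard error 1.18, adjusted p = 0.0863), and without MEF replicate 1 the log2 difference was -4.11 (adjusted p = 6.89e-04), while centred on Gapdh it was -2.73 (adjusted p = 0.0427). Serpinb8, whose human counterpart inhibits furin, was at 7.48 (P20) and 7.65 (P3) in iHepSCs and at 5.39 on the pHep array, against 7.47, 7.06, 7.30 and 7.05 in MEF. It was lower in pHep than in MEF (log2 difference -1.83, standard error 0.20, adjusted p = 0.00125; -1.39 and 0.152 on the second probe set) and 4.51-fold higher in iHepSCs than in pHep (log2 difference 2.17, adjusted p = 0.00117). In iHepSCs against MEF it passed only without MEF replicate 1 (0.42, adjusted p = 0.0138, beside 0.34, adjusted p = 0.152).

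**Figure D3:**
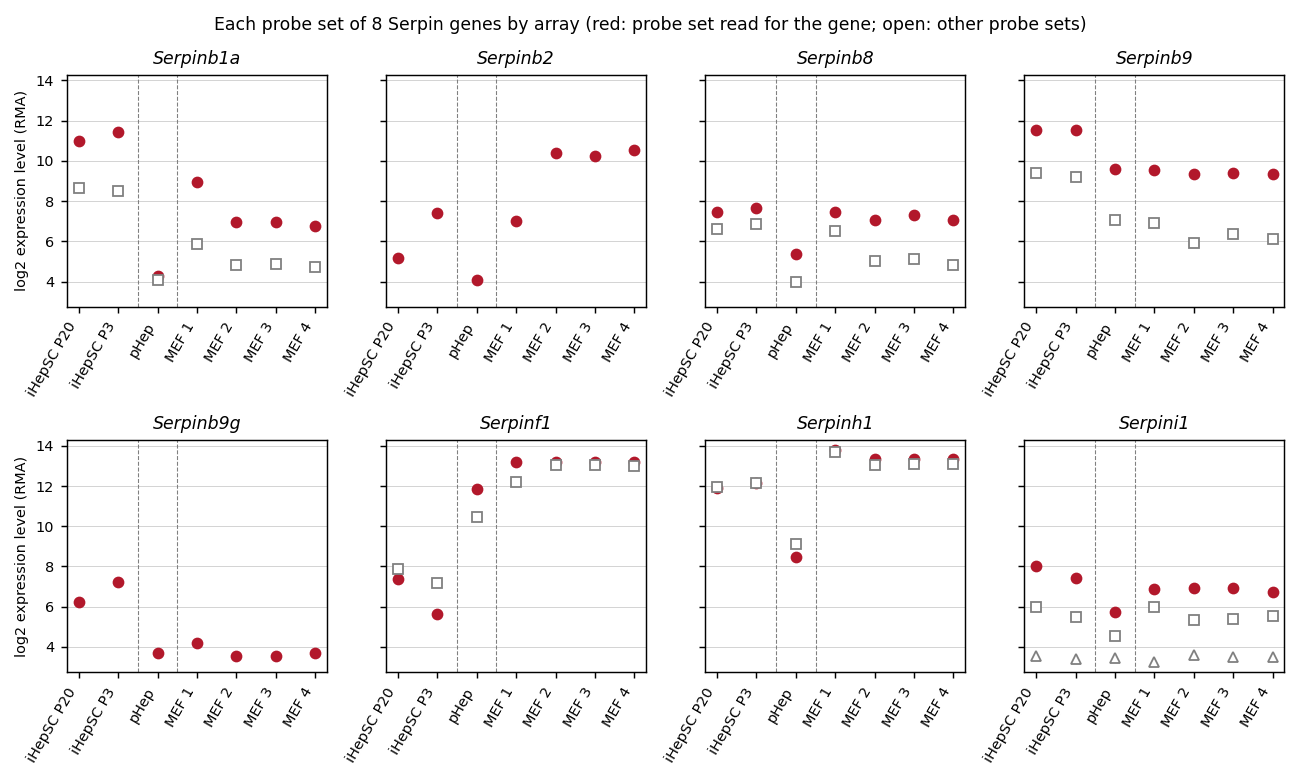
Log2 expression level on each array for every single-symbol probe set of 8 Serpin genes, with the probe set read for the gene in red and the others open. The probe sets of Serpinb1a, Serpinb9, Serpinf1 and Serpinh1 move together, 1 probe set of Serpini1 stays near 3.5 on every array, and MEF replicate 1 stands apart in Serpinb1a (8.97) and Serpinb2 (6.99).

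Serpina12 and Serpini1 rose in iHepSCs and not in pHep. Serpina12 encodes vaspin, an adipokine that inhibits kallikrein-related proteases. It was at 8.23 (P20) and 8.59 (P3) in iHepSCs and at 6.35 on the pHep array, against 6.01, 5.61, 6.03 and 5.78 on the MEF arrays. Its log2 difference was 2.56 in iHepSCs against MEF (standard error 0.17, adjusted p = 1.21e-04) and 2.07 in iHepSCs against pHep (standard error 0.24, adjusted p = 0.00237), and a dimmer second probe set gave 0.63 against MEF (adjusted p = 0.0249) and 0.56 against pHep (adjusted p = 0.132). Serpini1 encodes neuroserpin, an inhibitor of tissue plasminogen activator best known in neurons. It was at 8.02 (P20) and 7.42 (P3) in iHepSCs and at 5.76 on the pHep array, against 6.74 to 6.95 in MEF, with a log2 difference of 0.85 between iHepSCs and MEF (standard error 0.18, adjusted p = 0.014) and of -1.11 between pHep and MEF (standard error 0.23, adjusted p = 0.0152). The rise in iHepSCs did not pass without iHepSC replicate 2 (0.55, adjusted p = 0.0625) or on the 2 other probe sets (0.17 and 0.008, adjusted p = 0.645 and 0.973). The fall in pHep did not pass on them either (-0.98, adjusted p = 0.054, and -0.003, adjusted p = 0.991) or when centred on Gapdh (-0.96, adjusted p = 0.179).

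The remaining clade A genes moved little or lay low. Serpina11 was at 6.49 (P20) and 6.57 (P3) in iHepSCs and at 7.16 on the pHep array, against 6.81 to 6.96 in MEF. It was called lower in iHepSCs than in MEF (-0.36, adjusted p = 0.0298), though higher without passing when centred on Gapdh (0.16, adjusted p = 0.576), and not without iHepSC replicate 1 or 2 (-0.40 and -0.32, adjusted p = 0.105 and 0.181) or without MEF replicate 2, 3 or 4 (adjusted p = 0.0714, 0.0817 and 0.0794). Lower in iHepSCs than in pHep by -0.63 (adjusted p = 0.0237), it did not pass without iHepSC replicate 1 or 2 (adjusted p = 0.0786 and 0.103) or MEF replicate 2 or 3 (adjusted p = 0.0573 and 0.0574) or when centred on Gapdh (-0.26, adjusted p = 0.584). Serpina6 encodes corticosteroid-binding globulin, a carrier known from liver, yet its probe set was at 4.43 on the pHep array and between 4.25 and 4.68 on the others (pHep against MEF -0.07, interval -0.48 to 0.34). Serpina1f, Serpina3a, Serpina3i, Serpina5, Serpina9 and Serpina4-ps1 also stayed below 6 on every array, as did Serpinb12, Serpinb1b, Serpinb3a, Serpinb7 and the pancreatic Serpini2. Of these, Serpinb12 and Serpinb1b passed as higher in iHepSCs than in MEF without MEF replicate 1 (0.25 and 0.38, adjusted p = 0.0285 and 0.0217) and higher than in pHep (0.42 and 0.58, adjusted p = 0.0162 and 0.0184), and Serpina1f passed as higher in iHepSCs than in pHep (0.49, adjusted p = 0.0474). At such levels a probe set may not report its gene, and no detection call was used.

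With MEF replicates 2 to 4 averaged as 1 sample, the calls of Serpini1, Serpinb6a, Serpinb6e and Serpina11 in iHepSCs against MEF (adjusted p = 0.12, 0.1, 0.0957 and 0.192) and of Serpinb1a, Serpinb2, Serpinb6e and Serpini1 in pHep against MEF (adjusted p = 0.0995, 0.194, 0.0578 and 0.105) did not pass. In iHepSCs against pHep the same held for Serpinb9g, Serpinb6a, Serpinb11 and Serpina11 (adjusted p = 0.0578, 0.0863, 0.0851 and 0.115).

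By position, 13 of the 14 clade A genes lie in 1 cluster on chromosome 12, the exception being Serpina7 on the X chromosome, and the 18 clade B genes lie in 2 clusters, 11 on chromosome 13 and 7 on chromosome 1. In the chromosome 13 cluster 7 of 11 Serpin genes were higher and 1 lower in iHepSCs than in MEF, and in the chromosome 1 cluster 2 of 7 were higher and none lower. Of all genes, 18.2% were higher and 13.4% lower in that comparison. Of 10 other genes beside the chromosome 13 cluster, 4 were higher and 2 lower in iHepSCs. The higher ones included Gmds (2.44) and Foxf2 (2.13) on 1 side and Bphl (1.08) on the other. The lower ones were Foxc1 (-2.17) and 1110046J04Rik (-1.43), 1 on each side. In pHep 1 of the 11 Serpin genes of chromosome 13 was higher and 3 were lower, and 2 of the 7 on chromosome 1 were lower. In pHep against MEF, 14.8% of all genes were higher and 15.5% lower. In the chromosome 12 cluster 4 of 13 genes were higher in pHep, and they were not adjacent as a group. Among the genes measured, Serpina10 and Serpina3n lay at its ends and Serpina1b and Serpina1c side by side within it. Copies without a single-symbol probe set, such as Serpina1a and Serpina1d, were left out of this order. None of the 10 other genes beside that cluster was higher than in MEF, whether in iHepSCs or in pHep. Adjacent members differed in direction, since Serpinb1a and Serpinb6b, first and second of the chromosome 13 cluster among the genes measured, had log2 differences of -3.14 and 2.87 in pHep.

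**Figure D4:**
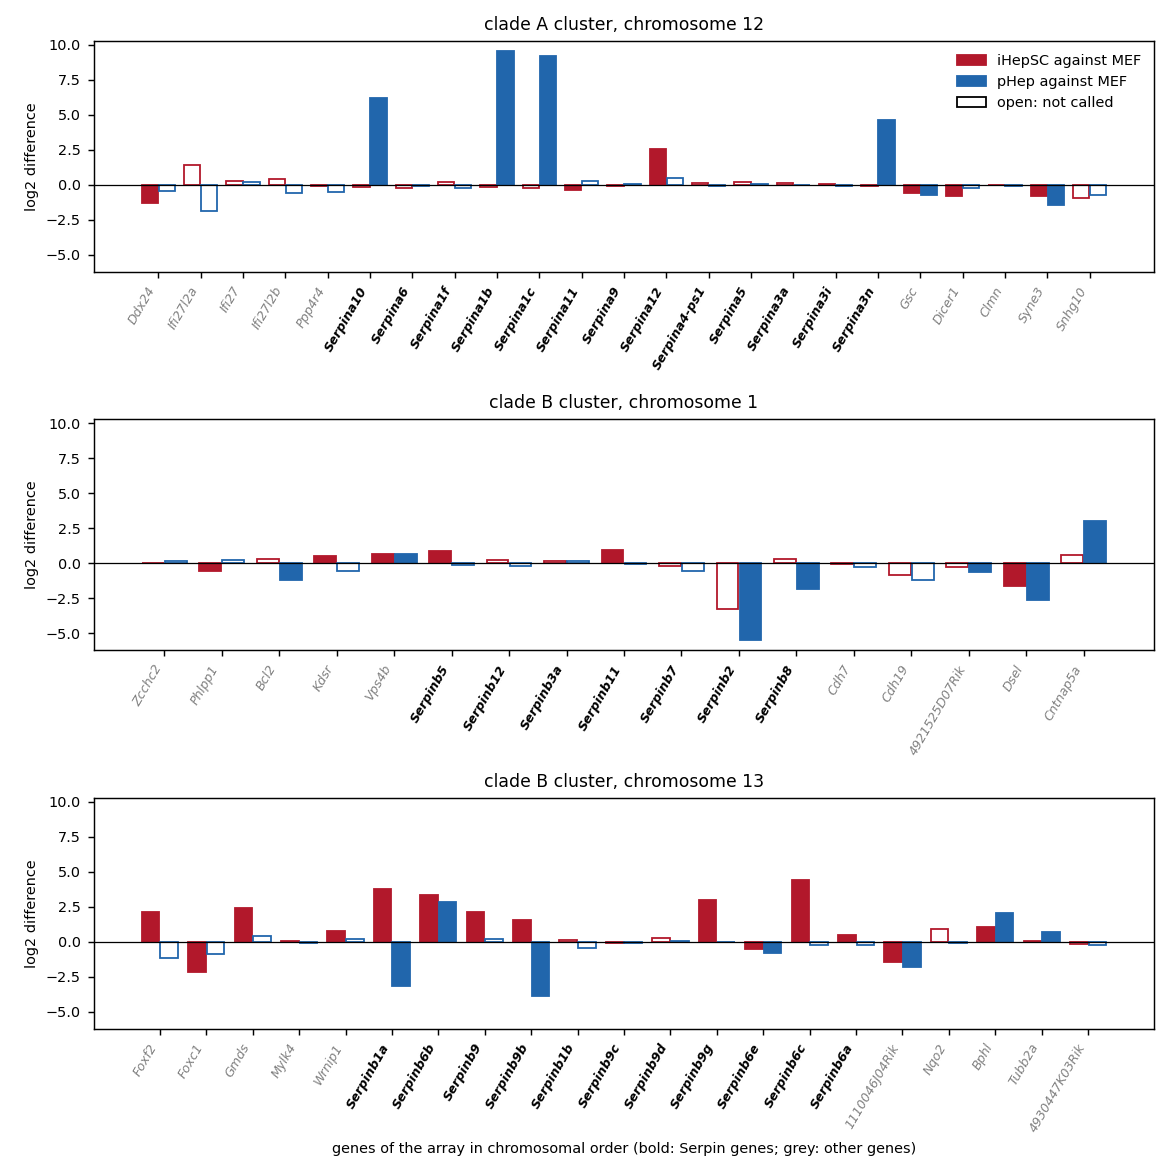
Log2 difference of Serpin genes (bold) and other genes within or up to 5 genes beside the 3 Serpin clusters, in chromosomal order, in iHepSCs (red) and pHep (blue) against MEF; open bars were not called. On chromosome 12 the rises are mainly those of pHep in 4 of 13 Serpin genes, and on chromosome 13 they are mainly those of iHepSCs in 7 of 11.

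Each passage was measured once, so that P20 and P3 are compared without a test. Of 21 Serpin genes with a mean of at least 6 in iHepSCs, 8 were higher and 13 lower at P20 than at P3, and the median difference was -0.05, beside 0.01 over 12453 genes. The difference was larger than 0.5 in 4 of them (19%, against 5.56% of all such genes). Serpinf1 was at 7.38 at P20, against 5.62 at P3, a difference of 1.76, and its second probe set gave 7.87 and 7.19. Serpini1 was at 8.02 at P20, against 7.42 at P3. Serpinb2 was at 5.17 at P20, against 7.41 at P3, and Serpinb9g at 6.25, against 7.22. Of the 9 plasma serpins that were higher in pHep than in MEF, 6 were higher and 3 lower at P20 than at P3, with differences between -0.16 (Serpinf2) and 0.23 (Serpina1c). The limit of 6 was not applied to them, and the share over all genes was not counted. Serpina1b, Serpina1c, Serpinc1 and Serping1 had means below it in iHepSCs (4.95, 5.41, 5.60 and 5.74).

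The proteases and partners of serpins were counted from fixed lists. Of 27 measured proteases listed as possible serpin targets, 9 were higher and 4 lower in iHepSCs than in MEF (33.3% and 14.8%, against 18.2% and 13.4% of all genes, median 0.13). In pHep against MEF, 15 of them were higher and 4 lower (55.6% and 14.8%, against 14.8% and 15.5%, median 1.19). In iHepSCs against pHep 1 was higher and 11 lower (3.7% and 40.7%, against 9.26% and 7.89%, median -1.08). F2, which encodes prothrombin, the target of antithrombin, had a mean of 7.75 in iHepSCs and was at 14.13 on the pHep array, against a mean of 6.37 in MEF, with log2 differences of 1.38 (adjusted p = 0.00591) and 7.76 (adjusted p = 1.89e-05). Plg, which encodes plasminogen, the source of the plasmin that α2-antiplasmin inhibits, was at 13.98 on the pHep array, against 5.71 in MEF, and at 5.88 in iHepSCs. C1s1, the complement protease bound by C1 inhibitor, rose in both, by 3.95 in iHepSCs (adjusted p = 3.37e-04) and 5.42 in pHep (adjusted p = 3.61e-04), while its inhibitor Serping1 fell in iHepSCs and rose in pHep. Casp1, an inflammatory caspase, had a mean of 11.31 in iHepSCs and was at 5.39 on the pHep array, against a mean of 5.12 in MEF (log2 difference in iHepSCs against MEF 6.19, adjusted p = 2.19e-06).

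Of 15 measured cofactors, receptors and partners, 3 were higher and 5 lower in iHepSCs than in MEF (20% and 33.3%, against 18.2% and 13.4% of all genes), and 5 were higher and 7 lower in pHep (33.3% and 46.7%, against 14.8% and 15.5%). Vtn, which encodes vitronectin, a plasma protein that binds several serpins, was at 14.50 on the pHep array, against 5.39 in MEF, and at 5.23 in iHepSCs. Procr, the endothelial protein C receptor, was higher in iHepSCs (2.42, adjusted p = 1.69e-05) and lower in pHep (-1.45, adjusted p = 6.09e-04) than in MEF. Agt encodes angiotensinogen, which belongs to the serpins by fold (clade A) though not by symbol, and was at 8.69 in iHepSCs and 13.42 on the pHep array, against 6.68 in MEF (log2 differences 2.00, adjusted p = 0.00115, and 6.73, adjusted p = 2.99e-05).

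Of 11 measured plasma protease inhibitors outside the serpins, 6 were higher and 1 lower in iHepSCs than in MEF (54.5% and 9.09%, against 18.2% and 13.4% of all genes, median 0.47). In pHep 9 were higher and 1 lower than in MEF (81.8% and 9.09%, against 14.8% and 15.5%, median 4.77). Ambp, which encodes bikunin, was at 9.32 in iHepSCs and 14.64 on the pHep array, against 5.503 in MEF, with log2 differences of 3.82 (adjusted p = 1.71e-04) and 9.14 (adjusted p = 2.08e-05). Itih2, a heavy chain joined to bikunin, rose by 3.59 in iHepSCs (adjusted p = 8.50e-05) and 5.03 in pHep (adjusted p = 8.28e-05). Spink1, a trypsin inhibitor of the Kazal type, was at 10.03 in iHepSCs and 9.11 on the pHep array, against 4.95 in MEF. Pzp and Mug1, of the α2-macroglobulin family, were higher in pHep than in MEF (8.40, adjusted p = 1.13e-05, and 4.77, adjusted p = 1.87e-05) and were not called in iHepSCs.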

How the data were processed

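Expression was measured on 7 Affymetrix Mouse 430 2.0 arrays. The authors deposited log2 values of 45101 probe sets after Robust Multiarray Analysis (RMA), whose version is not given in the sources used here. The number of arrays sets the precision. Without the 64 control probe sets, 34958 probe sets had 1 gene symbol, 932 several and the others none, which gave 18193 genes, each read by the probe set with the highest mean. No filter on dim probe sets was used.

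All tests were two-sided. They came from limma (version 3.58.1, in R 4.3.3, with lmFit and eBayes), from 1 model with 4 residual degrees of freedom and a prior of 2.11 degrees of freedom. Its spread comes from the MEF and iHepSC arrays alone and is taken to hold for pHep, with 1 array, as well. Benjamini-Hochberg adjustment ran over all genes, and 0.05 was the threshold. The fit was tried on simulated arrays with changes in iHepSCs alone and a spread taken from MEF replicates 2 to 4. Only iHepSCs against MEF was read there, so the comparisons with pHep were not tried. Fits of single probe sets were made over all probe sets and chosen after the data were seen. Alternatives were other choices of probe set, a filter at log2 6, other scaling, trend and robust priors, a 2-fold floor, the methods' t-test, the replicate number as a block, averaging of MEF replicates 2 to 4 and leaving out each array. MEF arrays were compared with Dixon's test (critical value 0.829).

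The members and lists were chosen with earlier results of these data known. Every Serpin gene could be named, and genes of the lists of proteases, partners, inhibitors and markers by largest change or known role. Gmds, Foxf2, Bphl, Foxc1, 1110046J04Rik, Lyz2, Krt14 and Gzmb were chosen after their values were seen. Promoter windows are from RefSeq (GRCm38.p6). Protein sequences and Serpin genes without a single-symbol probe set were not analysed here. Python 3.11.15 with pandas 2.3.3 and numpy 2.4.6 made the tables, and matplotlib 3.10.9 the figures.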

Additional observations from a re-analysis of the deposited data

Results flagged for a closer look

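On 8 of the 40 Serpin genes (20%, against 23.5% of all genes) 1 MEF array lay far from the other 3 by Dixon's test, where chance gives about 1 in 20 groups. The ratio of gap to range was 0.913 in Serpinb1a, 0.848 in Serpinb1b, 0.905 in Serpinb2 and 0.972 in Serpinh1, each time with MEF replicate 1 apart. It was 0.872 in Serpinb9b and 0.842 in Serpinc1 with replicate 3 apart, and 0.831 in Serpinb11 and 0.991 in Serpinb9c with replicate 4 apart. In Serpinb9c the 4 values spanned only 4.22 to 4.28.

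All 3 probe sets that carry several Serpin symbols, which entered no comparison of genes, showed a difference. The probe set shared by Serpina1d and Serpina1a was 11.21 higher on the log2 scale in pHep than in MEF, and that shared by Serpina1e, Serpina1c and Serpina1b was 8.33 higher. The probe set shared by Serpinb9h, Serpinb9g, Serpinb9e and Serpinb9f was 3.79 higher in iHepSCs than in MEF.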

How the results depend on the processing

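Of the called genes, 8 of 17 in iHepSCs against MEF, 11 of 17 in pHep against MEF and 12 of 23 in iHepSCs against pHep kept their call and direction under every alternative that read them. The replicate block left 7 higher and 3 lower in iHepSCs against MEF, 2 lower in pHep against MEF and 5 higher in iHepSCs against pHep. No label says that a number marks a shared source, so the numbers were not taken to pair the samples. Same-numbered arrays deviated with r = -0.22 and -0.21, values that are not independent, since the deviations of 2 iHepSC arrays mirror each other. A floor of 2-fold left 7 higher and 2 lower in iHepSCs and 3 lower in pHep, against MEF. Centring on Gapdh left 3 lower in iHepSCs and 4 in pHep, and turned Serpina11 (0.16, adjusted p = 0.576) and Serpinb6e (0.0456, adjusted p = 0.882) to positive differences in iHepSCs against MEF. It moved the median of all genes by 0.53, so the size of small differences depends on the scaling. With MEF replicates 2 to 4 averaged, 3 were lower in iHepSCs and 3 in pHep. Leaving out 1 array gave 3 to 6 lower in iHepSCs against MEF. The cause of these changes was not tested. The other counts over all Serpin genes stayed within 1.5 times of their main value. Of the clade counts, clade B genes higher in iHepSCs than in MEF numbered 5 instead of 9 under the 2-fold floor and under the block, clade B genes lower in pHep than in MEF 2 and 1 instead of 5, and clade A genes higher in pHep than in MEF 3 instead of 5 without probe sets of suffix _x_at or _s_at. The level of a dim probe set limits what can be seen in the 14 genes below 6 on every array.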
